A study of Homo sapiens with 6 samples.

Results

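The 10 genes described here encode sensors of unfolded protein in the endoplasmic reticulum (ER), components of ER-associated degradation (ERAD), and folding factors made when the response is active. They are ERN1, XBP1, ATF6, SEL1L, SYVN1, HERPUD1, EDEM1, PDIA4, SDF2L1 and CRELD2. They were chosen by name, with earlier results of these data known. A probeset belonged to the set if the platform annotation gave it 1 gene symbol and that symbol was on the list. All 10 were found, each with 1 probeset, among 18404 measured genes. RNA came from PC-3 cells, an androgen-independent line established from a human prostate carcinoma, and the study asked what menthol, a cooling agent from mint, does to their gene expression. The menthol group (3 arrays) received menthol dissolved in ethanol and the vehicle group (3 arrays) received ethanol alone, at 0.1% ethanol in both groups and in medium with 10% fetal bovine serum. For the menthol dose and the treatment time, the sources used here give no value. No label states whether replicates came from separate cultures, and p-values therefore reflect the spread among these samples alone, possibly a technical one.

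Proteins that enter the secretory pathway fold in the ER, and an excess of unfolded protein there sets off the unfolded protein response. IRE1, the product of ERN1, removes a short intron from XBP1 mRNA, which then encodes an active transcription factor, while ATF6 travels to the Golgi and is cut there to release its transcription factor domain. A further sensor, PERK, slows translation and favours ATF4. The factors raise the expression of chaperones and of ERAD, in which EDEM proteins mark misfolded glycoproteins, the SEL1L and SYVN1 ligase complex ubiquitinates them in the ER membrane, and the ATPase VCP pulls them into the cytosol. IRE1 and ATF6 are set in action by splicing and cleavage, which the arrays did not measure: each value below is the level of total mRNA of a gene.

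Levels are log2 of the deposited intensity, and each difference is menthol minus vehicle on that scale with its moderated standard error (SE, n = 3 per group) from limma, which was fitted to all 18404 genes. A gene passed when its adjusted p (Benjamini-Hochberg over all genes) was under 0.05. The 3 genes ATF6, HERPUD1 and PDIA4 rose, EDEM1 and SEL1L fell, and the other 5 did not pass. The share of members past the threshold, 5 of 10, compares with 29.1% of all genes (14.6% higher and 14.5% lower), and with 44.1% among the brightest 4601 genes. Each of the 5 members that passed lay among those brightest genes, as did XBP1. ERN1, SYVN1, SDF2L1 and CRELD2 were among the 4601 genes next in signal, of which 37.6% passed. The median difference was -0.03 over the 10 genes and 0.03 over all genes. No member reached a 1.5-fold change, whatever its p, while 5.61% of all genes passed with at least that change (2.99% higher and 2.62% lower). In bulk RNA, a smaller number of cells of a kind and less RNA per cell cannot be told apart.

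**Figure D1:**
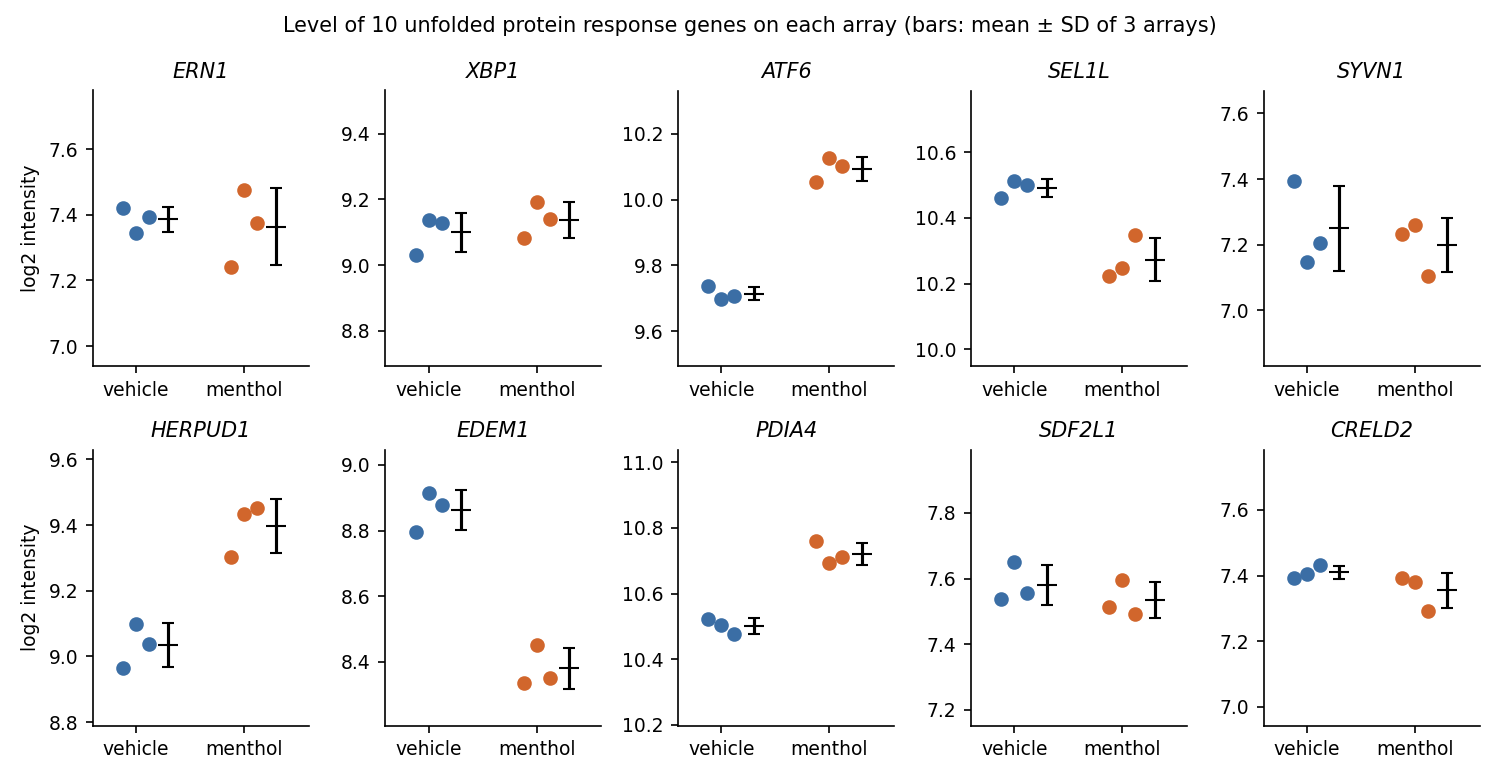
Each panel plots the log2 intensity of 1 gene on the 3 vehicle arrays (blue) and the 3 menthol arrays (orange), with the mean ± SD of each group beside them; all panels span the same height in log2 units. The groups are apart for ATF6, HERPUD1 and PDIA4 (menthol above) and for EDEM1 and SEL1L (menthol below), nearly touch for CRELD2, and overlap for ERN1, XBP1, SYVN1 and SDF2L1.

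Part of this response is driven through short promoter elements, so the RefSeq promoter windows (GRCh38.p14, 250 bases before to 50 after each start) were searched on both strands. The ER stress response element (ERSE) joins a CCAAT box, bound by NF-Y, to the letters CCACG, a site for ATF6 and XBP1, with any 9 bases between. The second form, ERSE-II, was searched as ATTGG and CCACG with any 1 base between, and an element favoured by XBP1, here called UPRE, was searched as TGACGTGG. An ERSE was found in XBP1 and CRELD2 and an ERSE-II in HERPUD1 and SDF2L1, and a UPRE in 0 of the 10 genes. Of all 35116 windows 0.0769% held an ERSE, 0.0541% an ERSE-II and 0.729% a UPRE. Counted by gene, as for the members, the shares of 27305 genes were 0.0916%, 0.0696% and 0.927%. The 250 bases before the start are shown 5′ to 3′ for the 4 genes with a match to either element, so that the matches can be read in place. Capitals mark the whole element, which in CRELD2 and SDF2L1 lies on the opposite strand.
XBP1: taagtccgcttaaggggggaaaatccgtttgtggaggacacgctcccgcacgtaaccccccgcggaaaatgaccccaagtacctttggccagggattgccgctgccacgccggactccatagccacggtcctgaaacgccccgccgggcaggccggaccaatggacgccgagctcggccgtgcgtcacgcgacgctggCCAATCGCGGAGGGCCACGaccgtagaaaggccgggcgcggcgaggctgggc
CRELD2: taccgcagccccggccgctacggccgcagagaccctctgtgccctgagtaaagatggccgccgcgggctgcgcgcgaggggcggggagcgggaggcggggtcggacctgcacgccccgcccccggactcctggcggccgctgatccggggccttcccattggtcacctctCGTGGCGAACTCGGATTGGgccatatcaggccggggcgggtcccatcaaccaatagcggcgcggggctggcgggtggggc
HERPUD1: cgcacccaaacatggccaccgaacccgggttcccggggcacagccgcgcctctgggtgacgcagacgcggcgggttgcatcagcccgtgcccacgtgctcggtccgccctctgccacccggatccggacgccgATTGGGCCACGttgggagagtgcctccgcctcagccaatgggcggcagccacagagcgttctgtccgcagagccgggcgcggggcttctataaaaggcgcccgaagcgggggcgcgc
SDF2L1: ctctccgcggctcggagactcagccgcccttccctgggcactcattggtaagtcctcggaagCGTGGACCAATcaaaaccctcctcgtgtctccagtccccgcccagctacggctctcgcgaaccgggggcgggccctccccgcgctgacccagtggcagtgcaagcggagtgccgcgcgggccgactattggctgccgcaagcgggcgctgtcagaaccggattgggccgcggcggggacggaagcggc

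The windows lie at chr22:28800570-28800819 (minus strand, XBP1), chr22:49918384-49918633 (plus strand, CRELD2), chr16:56931892-56932141 (plus strand, HERPUD1) and chr22:21642052-21642301 (plus strand, SDF2L1). The element spans bases -52 to -34 from the start in XBP1, -80 to -62 in CRELD2, -117 to -107 in HERPUD1 and -188 to -178 in SDF2L1. Of these 4 genes HERPUD1 rose and the other 3 did not pass. A match of letters is a description and not a measured binding site, and a gene without a match may hold an element outside the window or with other letters.

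Among the sensors, ERN1, the gene of IRE1, had log2 levels of 7.42, 7.34 and 7.39 on the vehicle arrays and 7.24, 7.47 and 7.38 on the menthol arrays. The groups overlapped, with the lowest and the highest value both on menthol arrays. The difference was -0.022 ± 0.075 (adjusted p = 0.857), with a 95% interval from -0.20 to 0.15. XBP1, which encodes the factor that IRE1 activates, stood at 9.03, 9.14 and 9.13 with vehicle and at 9.08, 9.19 and 9.14 with menthol. These values overlapped as well, and the difference was 0.038 ± 0.065 (adjusted p = 0.696, 95% interval -0.11 to 0.19). The interval of either gene lies inside a change of 1.5-fold, which is 0.58 on the log2 scale.

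ATF6 was the sensor that moved. Its log2 level was 9.74, 9.70 and 9.71 on the vehicle arrays and 10.05, 10.13 and 10.10 on the menthol arrays, so every menthol array lay above every vehicle array, with SDs of 0.020 (vehicle) and 0.036 (menthol). The rise was 0.38 ± 0.058, or 1.30-fold (adjusted p = 0.00252), and 84.5% of all genes showed a smaller change in either direction. EIF2AK3, the gene of PERK, did not pass (0.10 ± 0.065, adjusted p = 0.288). Its menthol arrays all lay above its vehicle arrays, as was so for 23.5% of all genes. CREB3, a membrane-bound relative of ATF6 that is cut in the Golgi by the same proteases, rose by 0.88 ± 0.065, or 1.83-fold (adjusted p = 0.000133), while its relative CREB3L2 was at -0.13 ± 0.068 (adjusted p = 0.196).

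In all, of 17 further sensors and factors that process them 2 rose and 3 fell. The other gene that rose was RTCB, the ligase that joins the XBP1 exons, at 0.21 ± 0.057 (adjusted p = 0.0269). With any 1 of the 6 arrays left out, 1 gene of the list rose. After cyclic loess normalization 4 rose and 4 fell, and 5 fell without the dimmest 25% of genes, with 16 added before log2, with the trended robust prior and with array weights. NFYB, a subunit of the NF-Y complex that binds the CCAAT box of the ERSE, fell by 0.48 ± 0.090 (adjusted p = 0.00625). The other NF-Y subunits were at -0.17 ± 0.058 for NFYA (adjusted p = 0.0661) and -0.068 ± 0.067 for NFYC (adjusted p = 0.490). MAP3K5, a stress kinase downstream of IRE1, fell by 0.34 ± 0.082, and the liver factor CREB3L3 was the third gene to fall. RTCB, NFYA, NFYC and CREB3L3 were named after their values were seen. Without vehicle replicate 1 or 3, 1 gene of this list fell, and MAP3K5 did not pass (adjusted p = 0.0507 and 0.0611).

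In the ligase complex of ERAD, SEL1L, the adaptor that holds the ligase and hands it substrates, had log2 levels of 10.46, 10.51 and 10.50 with vehicle and 10.22, 10.25 and 10.35 with menthol. All menthol arrays lay below all vehicle arrays, and the level fell by 0.22 ± 0.063, or 1.16-fold (adjusted p = 0.0353). The call was a narrow one: the adjusted p lay between 0.0765 and 0.108 when vehicle replicate 1, 2 or 3 or menthol replicate 1 or 2 was left out, and was 0.0280 without menthol replicate 3. After quantile normalization the difference was -0.11 (adjusted p = 0.193) and after cyclic loess normalization -0.13 (adjusted p = 0.122).

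SYVN1, which encodes the ubiquitin ligase itself (HRD1), stood at 7.39, 7.15 and 7.21 with vehicle and 7.23, 7.26 and 7.10 with menthol. The groups overlapped, vehicle replicate 1 being the highest of the 6. The difference was -0.050 ± 0.084 (adjusted p = 0.693, 95% interval -0.25 to 0.14). The SD of SYVN1 in the vehicle group, 0.13, was the largest SD of any member in either group.

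HERPUD1, a ubiquitin-like membrane protein that joins the ligase to its partners, rose. Its log2 level was 8.97, 9.10 and 9.04 on the vehicle arrays and 9.30, 9.43 and 9.45 on the menthol arrays, with no overlap. The rise was 0.36 ± 0.070, or 1.29-fold (adjusted p = 0.00724), and 82.9% of all genes changed less. Its paralogue HERPUD2 was at 0.055 ± 0.061 (adjusted p = 0.543). The derlins form part of the channel beside the ligase: DERL1 rose by 0.23 ± 0.062 (adjusted p = 0.0263) and DERL2 by 0.25 ± 0.061 (adjusted p = 0.0194), and DERL3 was at -0.081 ± 0.12 (adjusted p = 0.657). OS9, a lectin that brings glycoproteins to SEL1L, rose by 0.34 ± 0.062 (adjusted p = 0.00558). The derlin calls were less firm: DERL1 was lost when vehicle replicate 1 or 3 or menthol replicate 2 or 3 was left out (adjusted p up to 0.0940), and DERL2 for vehicle replicate 1 or 2 or menthol replicate 2 (adjusted p up to 0.0756).

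The largest change among the 10 genes was that of EDEM1, whose product recognises misfolded glycoproteins and trims their mannose. The log2 level was 8.80, 8.91 and 8.88 with vehicle and 8.34, 8.45 and 8.35 with menthol. The gap between the groups was wider than the range within either, and the level fell by 0.48 ± 0.066, or 1.40-fold (adjusted p = 0.00161, 95% interval -0.64 to -0.33). Of all genes 90.8% changed less. EDEM2, which starts the mannose trimming, was at 0.22 ± 0.075 (adjusted p = 0.0650) and its menthol arrays lay above its vehicle arrays; EDEM3 was at -0.15 ± 0.081 (adjusted p = 0.213). EDEM2 passed as higher under 7 other processing settings and without vehicle replicate 3 (adjusted p = 0.0338).

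Among the folding factors, PDIA4 encodes a disulfide isomerase of the ER (ERp72). It stood at 10.52, 10.50 and 10.48 with vehicle and 10.76, 10.69 and 10.71 with menthol, with no overlap. The rise was 0.22 ± 0.058, or 1.16-fold (adjusted p = 0.0245). When vehicle replicate 1, 2 or 3 or menthol replicate 1 or 2 was left out, PDIA4 missed the threshold (adjusted p between 0.0541 and 0.0768), and it passed without menthol replicate 3 (adjusted p = 0.0446). Its relative PDIA6 was at 0.081 ± 0.061 (adjusted p = 0.362), and passed as higher under cyclic loess normalization alone (0.20, adjusted p = 0.0343).

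SDF2L1, an ER protein that works with the chaperone BiP and its partner ERdj3, stood at 7.54, 7.65 and 7.55 with vehicle and 7.51, 7.60 and 7.49 with menthol. The groups overlapped, and the difference was -0.048 ± 0.065 (adjusted p = 0.621, 95% interval -0.20 to 0.10). Its paralogue SDF2 rose by 0.41 ± 0.067, or 1.33-fold (adjusted p = 0.00335). CRELD2, a secreted ER protein with EGF-like repeats, stood at 7.39, 7.40 and 7.43 with vehicle and 7.39, 7.38 and 7.29 with menthol. Its menthol arrays lay just below its vehicle arrays, and the difference of -0.055 ± 0.060 did not pass (adjusted p = 0.531, 95% interval -0.19 to 0.08). Its paralogue CRELD1 fell by 0.24 ± 0.063 (adjusted p = 0.0257) and did not pass with any 1 array other than vehicle replicate 3 left out (adjusted p up to 0.0941).

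**Figure D2:**
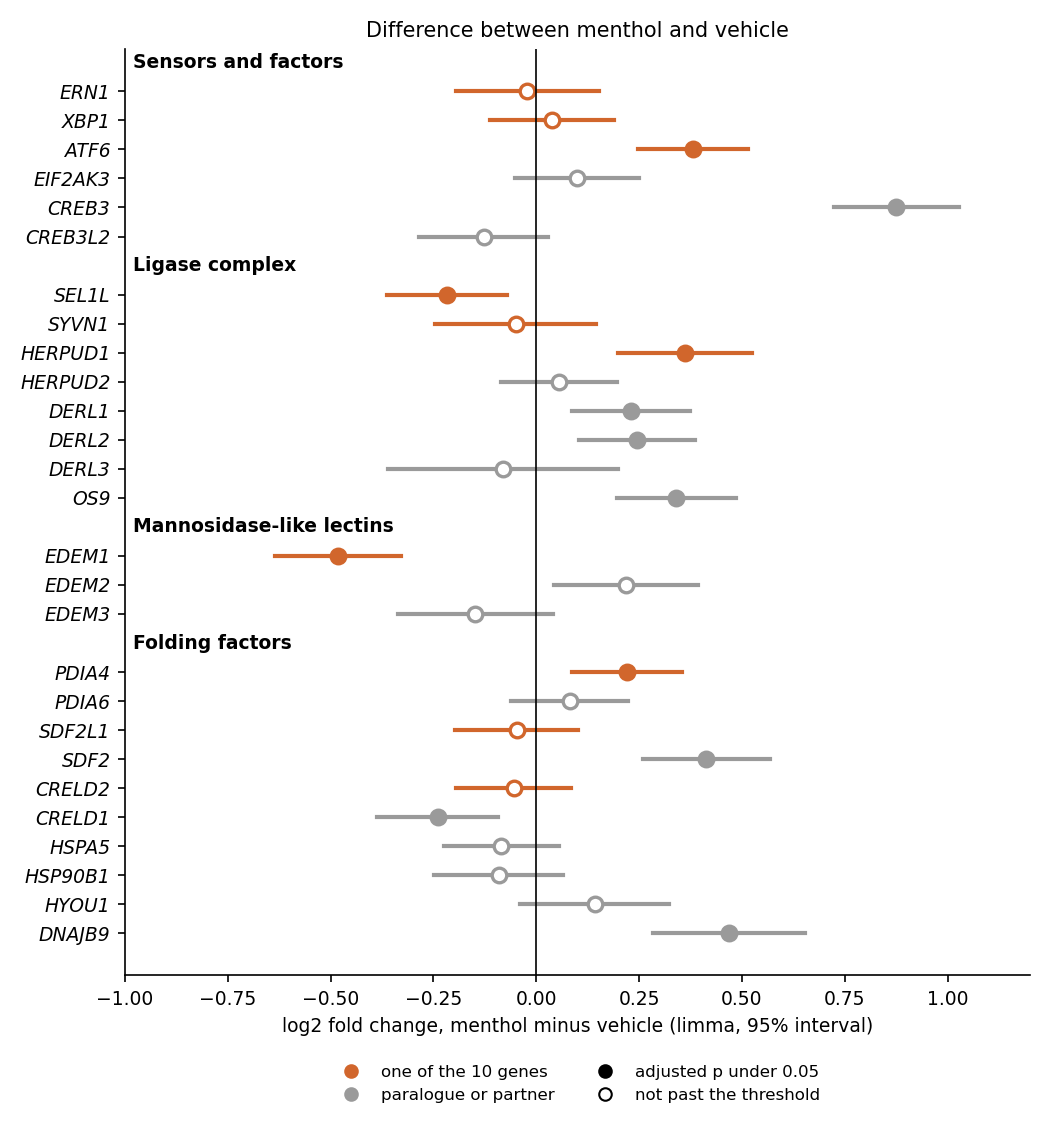
The log2 fold change, menthol minus vehicle, is plotted with its 95% interval from limma for the 10 genes (orange) and for paralogues and partners (grey), grouped by role; filled points have an adjusted p under 0.05. EDEM1 at -0.48 and SEL1L at -0.22 lie left of 0, ATF6 at 0.38, HERPUD1 at 0.36 and PDIA4 at 0.22 lie right of it, and the intervals of the other 5 of the 10 genes cross 0.

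Over the 10 genes, the menthol arrays all lay above the vehicle arrays in 3 and all below in 3, against 23.5% and 21.7% of all genes (45.3% in either direction). The third gene below, beside EDEM1 and SEL1L, was CRELD2, which did not pass. These shares cover genes of every signal level, and shares at the signal of the members were not computed.

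Members and paralogues were also compared within each array, as the change of the log2 ratio of a member to its paralogue, in 6 pairs chosen after the values were seen. The ratio of EDEM1 to EDEM2 changed by -0.70, with an SD of 0.10 over the vehicle arrays and 0.05 over the menthol arrays, and that of EDEM1 to EDEM3 by -0.33. The ratio of SDF2L1 to SDF2 changed by -0.46 and that of CRELD2 to CRELD1 by 0.18. The ratio of HERPUD1 to HERPUD2 changed by 0.31 and that of PDIA4 to PDIA6 by 0.14. The groups did not overlap in any of the 6 pairs. The exact two-sided permutation test of 3 against 3 arrays gave p = 0.10 for each (adjusted p = 0.10 over the 6 pairs), the smallest it can give. Because the pairs were picked with the values known, neither the lack of overlap nor these p-values is evidence of a difference. Among single genes, 45.3% had groups that did not overlap.

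The wider pathway was described with 9 lists of other genes, 194 listed and 180 measured. The lists too were chosen with earlier results of these data known. In these lists, 12.5% (ERAD lectins and mannosidases) to 42.9% (ERAD membrane complexes) of measured genes passed in either direction. Beside this stand 29.1% of all genes and 44.1% of the brightest 4601 genes. In the PERK arm, 2 of 12 genes rose and 3 fell. NUPR1, a stress-induced chromatin protein, rose by 0.63 ± 0.062, or 1.55-fold (adjusted p = 0.000386), and the stress-induced factor ATF3 by 0.39 ± 0.080. ATF4, the factor at the head of this arm, fell by 0.25 ± 0.057 (adjusted p = 0.0143), and its target CHAC1, which degrades glutathione, by 0.36 ± 0.085. PPP1R15B, the constitutive partner of the phosphatase that acts on eIF2alpha, also fell and was named after its value was seen. DDIT3, which encodes the stress factor CHOP, had overlapping groups and was at -0.14 ± 0.10 (adjusted p = 0.354). Without vehicle replicate 3, 1 gene of this list fell, and ATF4 did not pass (adjusted p = 0.0528). ATF4 was at -0.16 after quantile normalization (adjusted p = 0.0648), when 2 genes of the list rose and 2 fell. It was at -0.25 and did not pass when the probesets of a gene were averaged (adjusted p = 0.0585), again with 2 genes that rose and 2 that fell. Without vehicle replicate 2 CHAC1 did not pass (adjusted p = 0.0564).

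Of 32 ER chaperones and foldases 10 rose and 3 fell, with a median difference of 0.08. This is 40.6% past the threshold, and 25 of the 32 belong to the brightest 4601 genes, of which 44.1% passed. DNAJB9 (ERdj4), a co-chaperone that restrains IRE1, rose by 0.47 ± 0.080 (adjusted p = 0.00423) from a low level of 5.52 to 5.99. Of the chaperones named whatever their values, the following did not pass: HSPA5, the gene of BiP, was at -0.085 ± 0.060 (adjusted p = 0.328), HSP90B1 (GRP94) at -0.092 ± 0.068 (adjusted p = 0.354) and HYOU1 at 0.14 ± 0.078 (adjusted p = 0.216). HSPA5 turned to 0.015 and HSP90B1 to 0.016 under cyclic loess normalization, and HSPA5 to 0.0055 under quantile normalization, none past the threshold. PDIA5, a further disulfide isomerase, fell by 0.57 ± 0.075 and GANAB, the catalytic chain of glucosidase II, by 0.48 ± 0.062. Without vehicle replicate 1, 6 genes of this list rose.

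Of 8 ERAD lectins and mannosidases 1 rose and 0 fell, the gene that rose being OS9. At an unadjusted p under 0.05 in limma 2 rose and 0 fell, beside 3957 higher and 3581 lower of all 18404 genes. Without vehicle replicate 3, 2 of the 8 passed the adjusted threshold as higher. Of 28 genes of the ERAD membrane complexes 9 rose and 3 fell, with a median of 0.06. SELENOS, a selenoprotein that ties VCP to the derlins, rose by 0.42 ± 0.058 (adjusted p = 0.00176). ERLIN1, a membrane protein that brings the IP3 receptor to degradation, fell by 0.76 ± 0.067, or 1.70-fold (adjusted p = 0.000259), and MAN1A1, a mannosidase of the Golgi that the list also holds, by 0.44 ± 0.069. The count of genes that rose fell to 3 when vehicle replicate 1 or menthol replicate 2 was left out, and to 5 for vehicle replicate 2 or 3 or menthol replicate 3.

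In the cytosolic arm of ERAD 3 of 20 genes rose and 5 fell, with a median of -0.06. BAG6, a chaperone of exposed membrane segments, fell by 0.60 ± 0.058, or 1.52-fold (adjusted p = 0.000351), and the deubiquitinase USP19 by 0.36 ± 0.074. GET4, a partner of BAG6, rose by 0.35 ± 0.064. BAG6 was at -0.24 and did not pass when the probesets of a gene were averaged (adjusted p = 0.421). Leaving out any 1 vehicle array left 1 gene that rose, and leaving out vehicle replicate 1 or 2 or menthol replicate 2 left 3 that fell. The split of higher against lower was 1 against 5 with equal array medians and 4 against 4 with cyclic loess normalization.

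Of 29 genes of the translocon, signal peptidase and oligosaccharyltransferase, which admit proteins to the ER, 11 rose and 0 fell, with a median of 0.11. At an unadjusted p under 0.05 in limma the counts were also 11 and 0, beside 3957 higher and 3581 lower of all 18404 genes. SEC11C, a catalytic subunit of signal peptidase, rose by 0.45 ± 0.083 (adjusted p = 0.00593), SRPRB, a subunit of the receptor for the signal recognition particle, by 0.37 ± 0.065 and SEC61A1, the channel itself, by 0.35 ± 0.065. SERP1, a translocon-associated stress protein, was at 0.10 ± 0.056 (adjusted p = 0.208). Of these 29 genes 26 belong to the brightest 4601 genes, of which 792 rose and 1239 fell. The number that rose was 5 without vehicle replicate 1, 6 without vehicle replicate 2 or 3, and 7 without menthol replicate 3, and 0 fell in each case. It was 14 after quantile or cyclic loess normalization and 8 with equal array medians or with the replicate number as a block. At the threshold of 0.01 it was 5, and 0 fell under each of these settings too.

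In ER-to-Golgi transport 6 of 29 genes rose and 4 fell, with a median of 0.02. GOSR2, a SNARE of the early Golgi, rose by 0.38 ± 0.062. KDELR1, which returns ER proteins from the Golgi, and SEC24A, a cargo adaptor of the COPII coat, fell by 0.35 ± 0.071 and 0.36 ± 0.070. After quantile normalization 12 rose and 3 fell, and after cyclic loess normalization 12 rose and 4 fell. Leaving out vehicle replicate 1 or 3 or menthol replicate 2 left 3 genes that rose, and leaving out vehicle replicate 2 left 2.

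Of 5 measured mRNAs reported as substrates of decay by IRE1, COL6A1, a collagen chain, fell by 0.79 ± 0.059, or 1.73-fold (adjusted p = 0.000131), and HGSNAT, a lysosomal acetyltransferase, rose by 0.39 ± 0.062. Of all genes 29.1% passed in either direction. At an unadjusted p under 0.05 in limma 1 of the 5 rose and 3 fell, beside 3957 higher and 3581 lower of all 18404 genes. Of the 5, those that did not pass the adjusted threshold were SPARC at -0.34 ± 0.12 (adjusted p = 0.0737), SCARA3 at -0.22 ± 0.076 (0.0682) and PDGFRB at -0.14 ± 0.098 (0.325). These were named after their values were seen. The count of the 5 that fell was 3 without the dimmest 25% of genes and with the trended robust prior. It was 2 without vehicle replicate 3 or menthol replicate 1, with equal array medians, cyclic loess normalization or array weights, without the dimmer 50% of genes, and with 16 added before log2.

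**Figure D3:**
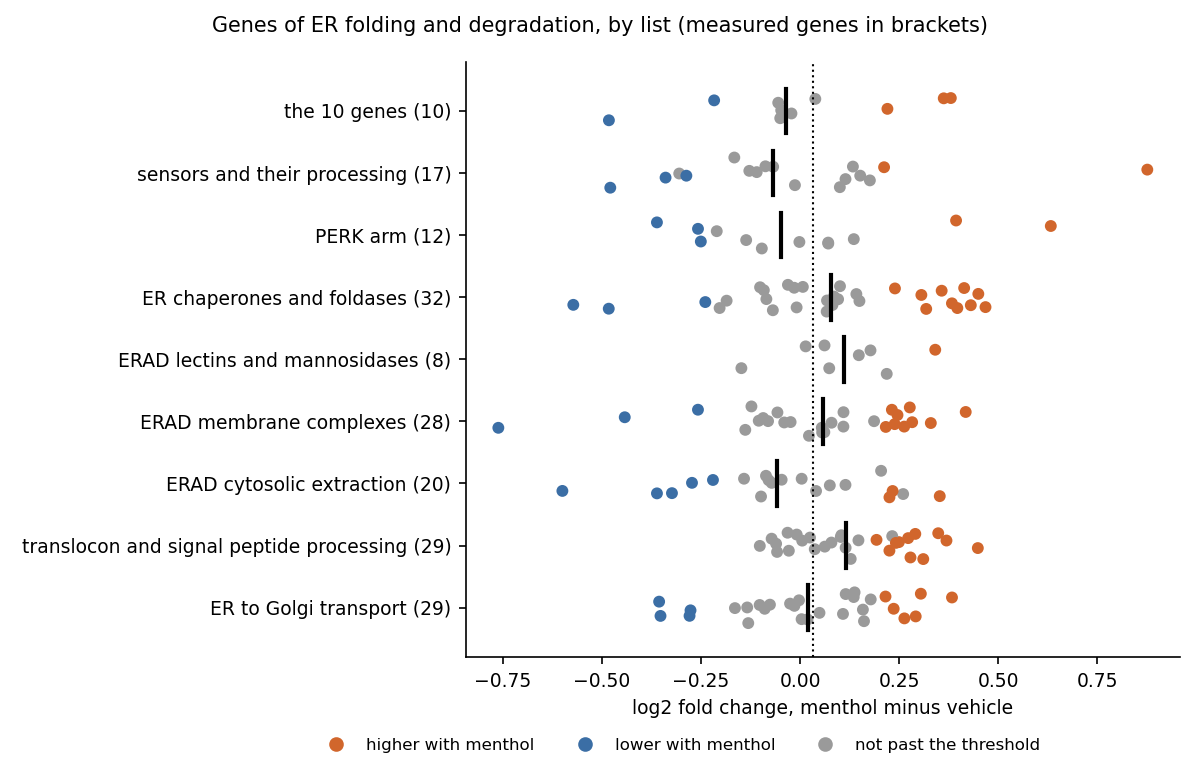
Each point is 1 gene at its log2 fold change, menthol minus vehicle, in the 10 genes and in 8 lists of the wider pathway; orange points rose, blue points fell and grey points did not pass, the bars are list medians and the dotted line is the median of all genes, 0.03. The translocon list holds 11 orange and 0 blue points, while most other lists hold both colours.

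Genes across the annotation that hold an ERSE or an ERSE-II numbered 44, of which 36 were measured. Of the 36, 11 rose and 3 fell, with a median of 0.06, beside 2126 higher and 2122 lower among the 14230 measured genes that have a promoter window. With the 4 members left out, 10 of 32 rose and 3 fell. Among the genes of the pathway lists with such an element, CALR, a lectin chaperone, rose by 0.24 ± 0.059 (adjusted p = 0.0193), as HERPUD1 did. HSPA5, HSP90B1, HYOU1, PDIA6 and SERP1, named above, did not pass, nor did CANX (-0.0089 ± 0.069, adjusted p = 0.938) or ERO1B (-0.20 ± 0.12, adjusted p = 0.258). Outside those lists, FICD, the enzyme that attaches AMP to BiP, rose by 0.52 ± 0.074 (adjusted p = 0.00199), CNKSR1 by 0.60 ± 0.069 and TRIM5 by 0.52 ± 0.074. The remaining genes that rose were SYNPO, NAV2, PLS3, ZNF17, FRG2C and LINC03006. FRG2C and LINC03006 rose from low vehicle levels of 2.60 and 4.20, and among the dimmest 4601 genes 473 rose and 88 fell. The 3 genes that fell were GYS1 (-0.72 ± 0.062), RUVBL2 (-0.67 ± 0.060) and ZNF143 (-0.56 ± 0.090). CALR, CANX, ERO1B and all genes named here from outside the lists were named after their values were seen. With 1 mismatch allowed in the fixed letters, an ERSE was found in 6 of the 10 genes and in 1.89% of 27305 genes (1.55% of all windows).

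**Figure D4:**
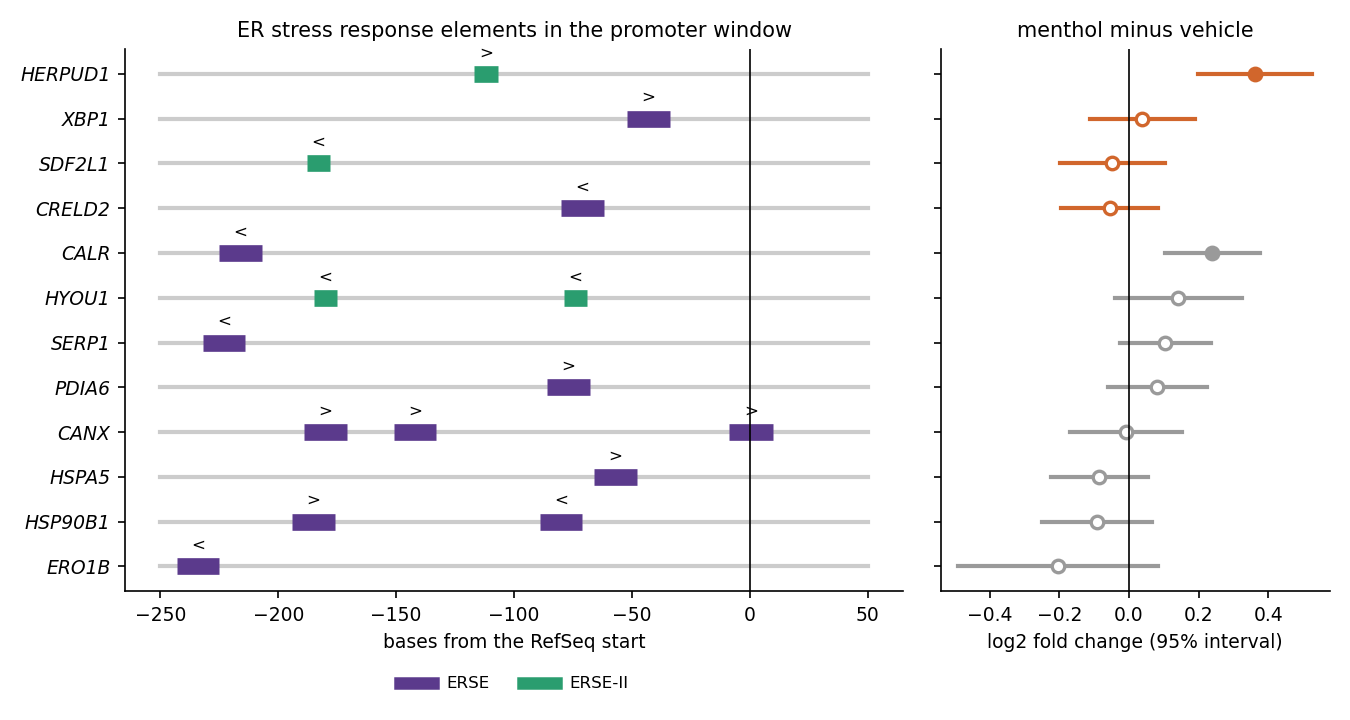
The left panel marks the ERSE (purple) and ERSE-II (green) matches by distance in bases from the RefSeq start, with arrows for the strand, in the 4 members with an element and in genes of the pathway lists. The right panel gives the log2 fold change with its 95% interval for the same genes, the 4 members in orange: HERPUD1 at 0.36 and CALR at 0.24 are filled, past the threshold, and the other intervals cross 0.

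The settings plot shows how the 10 genes fared under other processing. ATF6, HERPUD1 and EDEM1 kept their direction and passed in every one of the 17 alternatives run, the stricter threshold of 0.01 among them. With each array left out in turn ATF6 lay between 0.36 and 0.40, HERPUD1 between 0.33 and 0.41 and EDEM1 between -0.52 and -0.46. ERN1, XBP1, SYVN1, SDF2L1 and CRELD2 did not pass in any of them. As a count, 2 to 3 members rose and 1 to 2 fell with each array left out, and the count that fell was 1 for every array but menthol replicate 3.

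**Figure D5:**
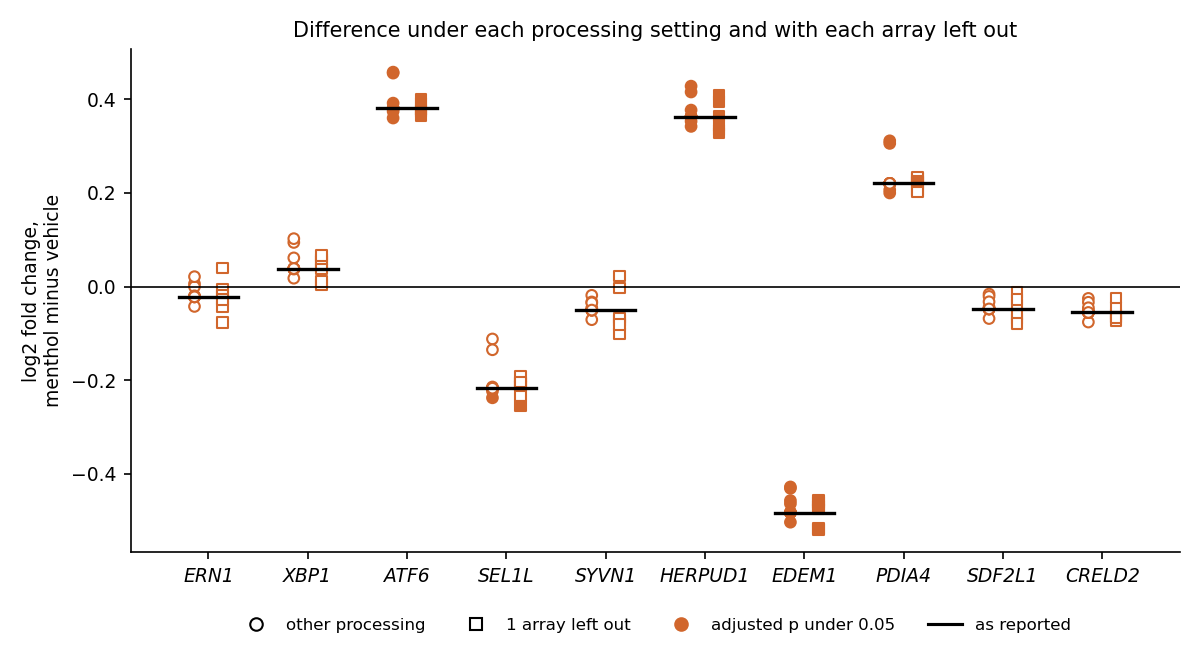
For each of the 10 genes the log2 fold change, menthol minus vehicle, is plotted under 10 other processing settings (circles) and with each of the 6 arrays left out (squares), beside the reported value (bar); filled symbols have an adjusted p under 0.05. All symbols of ATF6, HERPUD1 and EDEM1 are filled, those of SEL1L and PDIA4 are partly open, and those of the other 5 genes are all open.

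The arrays were alike in depth of signal, with medians of 47.4 to 49.1 intensity units and correlations of log2 values within a group of at least 0.991. The labelled cell type was checked on markers: the 7 epithelial and PC-3 markers, KRT8, KRT18 and EPCAM among them, lay between percentiles 87.6 and 99.0 of signal. The plasma cell and leukocyte markers ranged from 2.96 (PTPRC) to 87.9 (SDC1), so the upper end of that list reached the epithelial range. Of these 7 markers 5 rose and 1 fell, and their summed intensity was 10005 to 10472 with vehicle and 13910 to 14235 with menthol. Of 8 fibroblast markers 2 rose and 2 fell (summed intensity 654 to 682 and 422 to 439). Their median difference was 0.14, and PDGFRA changed most (-1.99 ± 0.14). Of 6 endothelial markers 3 rose and 0 fell, also at an unadjusted p under 0.05 in limma (201 to 210 and 311 to 330). Here the median was 0.21, and KDR changed most (1.42 ± 0.088). A sum of intensities can follow 1 such gene. The endothelial markers lay between percentiles 15.8 and 48.6 of signal, and the fibroblast markers between 0.717 and 70.7. Of all genes 29.1% passed, of the dimmest 4601 genes 12.2%, and of the 4601 genes next above these 22.4%. At an unadjusted p under 0.05 in limma, 3957 of all 18404 genes were higher and 3581 lower. SDC1, PDGFRA and KDR were named after their values were seen. Of 8 plasma cell and leukocyte markers, cells rich in this response, 0 rose and 1 fell, also at an unadjusted p under 0.05 (686 to 721 and 711 to 795). Of 4 measured prostate luminal and androgen genes 0 passed in limma, and 2 were higher at an unadjusted p under 0.05 (307 to 320 and 322 to 396). The part of these markers in the differences of the 10 genes was not tested.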

How the data were processed

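Affymetrix whole-transcript arrays were hybridised with cDNA from 300 ng of total RNA, per the labels' protocols. The authors deposited 1 table of intensity values for 32321 probesets in 6 arrays, made with RMA per the submitters' processing notes; the sources used here name no software version. The values, 1.57 to 14835, are linear and were turned into log2. Probesets with 1 symbol in the platform annotation (19158) were kept, and of several per gene the one with the highest mean. The limma package (version 3.58.1, R 4.3.3) was fitted, two-sided and with no covariate, to 18404 genes with Benjamini-Hochberg adjustment, after a check on simulated data. With 200 genes changed 1.5-fold, the fit recovered 175 and made 16 false calls. At 1.2-fold it recovered 1 of 200, with 0 false calls. The simulation held fewer changed genes than passed here, so its recovery is not that of the real fit. With 3 arrays a group, 0.10 is the smallest p an exact permutation test gives. Promoter windows were searched with Python 3.11.15.

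The members and lists were chosen with earlier results of these data known. Named were all 10 members, fixed paralogues and partners whatever their values (ATF6B and PDIA3 among them, not analysed here), and up to 3 genes per list with the largest change past the threshold; other genes are said to have been named after their values were seen. Alternatives were 3 normalizations, 2 filters on dim genes, an added 16 before log2, mean probesets, a trended robust prior (statmod 1.5.0), weights per array, a replicate block, each array left out, and 0.01 as the threshold. Protein sequences were not used here. The number of arrays limits the precision.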

Additional observations from a re-analysis of the deposited data

How the results depend on the processing

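Leaving out 1 array at a time gave 1950 to 2402 genes higher and 1851 to 2472 lower over all genes and 1 to 2 members lower, and in the pathway lists 23 to 40 higher and 14 to 23 lower. SEL1L then ranged from -0.25 to -0.19 and PDIA4 from 0.20 to 0.23, both without passing in 5 of 6 cases, ERN1 from -0.077 to 0.039, SYVN1 from -0.10 to 0.022 and DERL3 from -0.21 to 0.048. Over other settings, ERN1 turned to 0.0060 under quantile normalization and 0.021 with array weights, HSPA5 to 0.0055 under quantile and 0.015 under cyclic loess normalization, and HSP90B1 to 0.016 under cyclic loess normalization, none past the threshold. SEL1L did not pass under quantile normalization (-0.11) or cyclic loess normalization (-0.13), so 1 member was lower with either, as also at the threshold of 0.01; the cause was not tested. At 0.01, which is stricter by construction, 1382 genes were higher and 1459 lower, 19 and 10 in the pathway lists, and neither SEL1L (-0.22) nor PDIA4 (0.22) passed. The ERSE count of 2 members became 6 with at most 1 mismatch, an alternative chosen after seeing the data.

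With the replicate number as a block, 2483 genes were higher and 2385 lower, SEL1L at -0.22 (adjusted p = 0.0597) and PDIA4 at 0.22 (adjusted p = 0.0513) did not pass, and 1 member was lower. Same-numbered arrays deviated from their group means with correlations of 0.0065, -0.0072 and 0.091. Arrays of unlike number gave correlations from -0.072 to 0.072. No label states whether the numbers pair the samples, and correlations over 3 arrays a group cannot settle it. ATF6, HERPUD1 and EDEM1 passed in each alternative. 6 arrays limit what changes of this size can show.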
